A study of Mus musculus with 9 samples.

Results

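The subunits of the proteasome were followed in single-cell RNA sequencing data from the kidneys of 9 mice. The genes were taken by name, as all gene symbols that begin with Psma, Psmb, Psmc or Psmd followed by a digit and hold no hyphen, which gave 40 of the 32427 genes in the tables. Of these 40 symbols, 31 are constitutive subunits, 3 are the inducible catalytic subunits of the immunoproteasome (Psmb8, Psmb9 and Psmb10), 3 are assembly chaperones of the base of the regulatory particle (Psmd5, Psmd9 and Psmd10) and 2 are tissue-restricted subunits (Psma8 of the testis and Psmb11 of the thymus). Psmc3ip matched by spelling only, since it encodes a protein of meiotic recombination and not a proteasome subunit.

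The study asked how ergothioneine (EGT), a sulfur-containing antioxidant taken up from the diet, bears on chronic kidney disease (CKD) that follows an acute kidney injury (AKI). Male C57BL/6 mice, 6 weeks old at the start, formed 3 groups of 6, of which 3 mice each were sequenced. The Control mice were injected with saline and received neither agent. Cisplatin, a platinum drug toxic to the kidney tubule, was injected into the AKI-CKD mice once a week for 4 weeks at 8 mg per kg, and the AKI-CKD + EGT mice had the same injections and EGT in the drinking water at 0.5 mg per mL from before the first of them. Kidneys were taken after 8 weeks, so each value describes a late stage, in cells that survived the injections and the dissociation of the tissue. The cisplatin groups are a drug model in a single sex and strain, and no group received EGT alone.

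The proteasome is the machine that unfolds and cuts proteins tagged with ubiquitin. Its 20S core is a stack of alpha and beta rings with the cutting sites inside, and its 19S regulatory particle has a base, whose ATPases unfold the substrate, and a lid, which removes the ubiquitin. Interferon induces 3 alternative cutting subunits that replace the constitutive ones in the immunoproteasome, which generates peptides for MHC class I molecules, while the transcription factor encoded by Nfe2l1 raises all constitutive subunits together when proteasome activity falls.

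The 5 promoters shown here belong to the genes on which the results below turn, 2 constitutive catalytic subunits and the 3 immunoproteasome subunits. Each line holds the 150 bases that end just before the RefSeq transcription start, written 5′ to 3′ along the gene's strand, in the GRCm38.p6 mouse build, which is not the build of the count tables. Capitals mark matches to the motifs searched, namely TGACNNNGC (the core of the antioxidant response element), TTCNNNGAA (the core of a STAT site), TTTC, any 2 bases and TTTC (the core of an interferon-stimulated response element) and GGGCGG (the GC box).
Psmb5, chr14:54617996-54618145, minus strand: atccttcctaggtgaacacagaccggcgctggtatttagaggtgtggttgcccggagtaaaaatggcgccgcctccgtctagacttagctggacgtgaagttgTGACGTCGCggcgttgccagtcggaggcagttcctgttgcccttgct
Psmb6, chr11:70525207-70525356, plus strand: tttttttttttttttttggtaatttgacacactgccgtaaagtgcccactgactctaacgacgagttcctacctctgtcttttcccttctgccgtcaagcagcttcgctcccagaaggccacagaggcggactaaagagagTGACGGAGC
Psmb8, chr17:34198045-34198194, plus strand: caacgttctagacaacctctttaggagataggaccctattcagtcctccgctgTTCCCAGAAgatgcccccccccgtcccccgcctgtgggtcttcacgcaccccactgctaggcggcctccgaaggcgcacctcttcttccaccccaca
Psmb9, chr17:34187331-34187480, minus strand: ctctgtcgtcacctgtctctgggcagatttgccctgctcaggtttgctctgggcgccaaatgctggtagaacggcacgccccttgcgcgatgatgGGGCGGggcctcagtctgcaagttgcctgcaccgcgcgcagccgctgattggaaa
Psmb10, chr8:105938393-105938542, minus strand: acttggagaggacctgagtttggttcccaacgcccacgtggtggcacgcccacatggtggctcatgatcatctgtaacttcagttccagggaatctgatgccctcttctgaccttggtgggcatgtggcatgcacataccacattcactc

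Psmb8 and Psmb9 lie close together on chromosome 17, in the region of the MHC genes, and are read in opposite directions. Psmb5 encodes the subunit with the chymotrypsin-like cutting site and Psmb6 the subunit with the caspase-like site, and both windows hold the antioxidant response element core. Over the 250 bases before the start and on both strands, this core was found in 5 of 35 promoters of the genes listed (Psmb5, Psmb6, Psmc6, Psmd9 and Psmd12), and in 10.2% of all 32851 promoters of that length. The GC box was found in 18 of the 35, against 32.7% of all promoters, the STAT core in Psmb8 alone, against 7.02%, and the interferon-stimulated core in Psmb3, Psmd4 and Psmd9, against 2.98%. A match is a run of letters in this window and is not a measured binding site.

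The 9 libraries held 216680 barcodes with 70106161 to 101525691 unique molecular identifiers (UMIs) each, and 196925 barcodes were kept, with 1000 UMIs and 500 genes as minimums and a limit of 15% on mitochondrial UMIs. Clusters were named by markers of each cell type, which gave 162765 proximal tubule (PT) cells, or 82.7% of the kept cells, 13124 distal convoluted tubule (DCT) cells, 5371 loop of Henle (LOH) cells, 3584 endothelial cells, 2760 macrophages and 8 smaller types. The class named DCT includes a cluster of 4528 cells led by S100g, Calb1 and Klk1, with Slc12a3 last of its 10 leading genes. No marker list of the connecting tubule was used, so its cells cannot be told apart from DCT cells here. Mitochondrial UMIs ranged from 1.55% to 6.39% of a library. UMIs of ribosomal protein genes made up 8.79% to 9.86% of the AKI-CKD libraries, 7.10% to 7.82% of the Control libraries and 7.18% to 8.26% of the AKI-CKD + EGT libraries, so this share differed between groups without overlap of AKI-CKD with either of the others, and its part in the results below was not tested. Levels are given as UMIs per 1000000 UMIs of the cells summed (CPM), and since the libraries count one end of a transcript, levels of different genes were not compared, apart from choosing the genes of each role with the most UMIs and giving the share of the catalytic UMIs.

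The constitutive subunits were present in every cell type at much the same summed level. The 31 genes together took a median of 4388 CPM in PT cells over the 9 mice, with a range from 4071 to 4859. Across 13 cell types the median ran from 3393 CPM in podocytes to 4982 CPM in thin limb cells, a ratio of 1.47, which was 1.30 without the podocytes. The podocyte sums rest on 482 cells in all and reached from 2502 to 4670 CPM between mice. Macrophages had 3981 CPM, collecting duct principal cells 3847 CPM, LOH cells 4211 CPM, DCT cells 4479 CPM and endothelial cells 4478 CPM. Neighbours in this order had ranges over the mice that overlapped, so their order is not settled by these data.

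**Figure D1:**
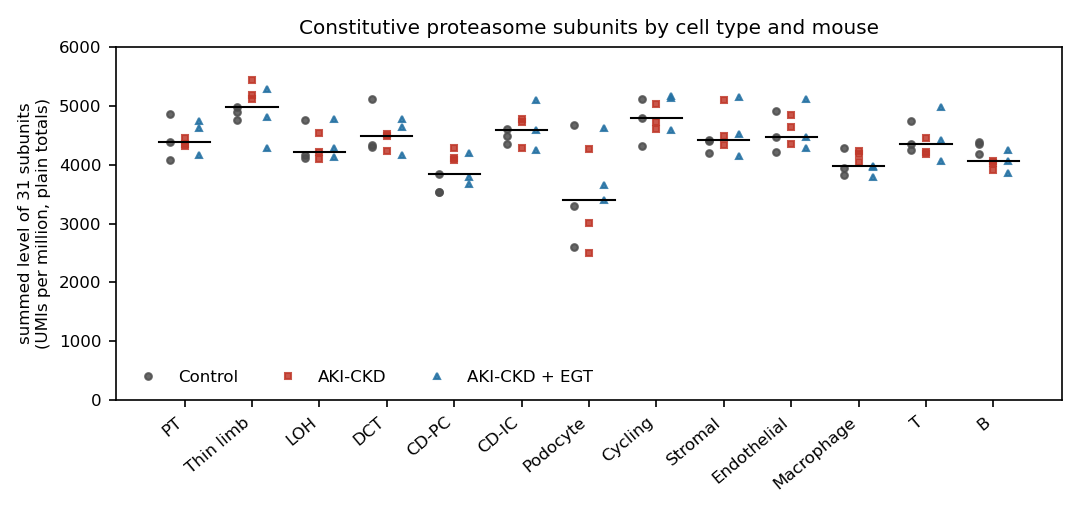
Summed level of the 31 constitutive proteasome subunit genes (CPM, linear axis) in each of 13 cell types, one point per mouse and colour by group, with a bar at the median of the 9 mice. PT cells have a median of 4388 and podocytes, the lowest type, 3393.

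Most single subunits varied more between types than their sum, whose ratio was 1.47. The ratio of the highest to the lowest type was under 2 for 27 of the 31 genes, with a median of 1.72. It was smallest for Psmc2, an ATPase of the base, at 1.38, and largest for Psmc6, another of these ATPases, at 2.36. Podocytes were the lowest type for 18 of the 31 genes. Cycling cells, the cluster set apart by genes of cell division, were the highest type for 10, and thin limb cells for 7.

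The immunoproteasome subunits had a different distribution. Psmb8, whose product replaces that of Psmb5, had a median of 1.76 CPM in PT cells, 132 CPM in endothelial cells, 126 CPM in B cells, 191 CPM in macrophages and 240 CPM in T cells. Psmb9, whose product replaces that of Psmb6, had 0.859 CPM in PT cells, 49.9 CPM in B cells, 57.3 CPM in endothelial cells, 67.0 CPM in macrophages and 68.6 CPM in T cells. Psmb10, whose product replaces that of Psmb7, had 8.07 CPM in PT cells, 14.99 CPM in LOH cells, 20.01 CPM in DCT cells, 80.8 CPM in B cells, 93.6 CPM in macrophages, 125 CPM in T cells and 143 CPM in endothelial cells. Endothelial, myeloid and lymphoid cells thus lay above tubule cells for all 3 genes, and the endothelium was highest for Psmb10 only.

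Within each mouse, all 3 genes were higher in each of these 4 types than in PT cells. Psmb8 was 80.6 fold higher in endothelial cells, 105 fold higher in macrophages, 136 fold higher in T cells and 63.4 fold higher in B cells, as means of the differences in log2 CPM with a prior count of 1. For Psmb10 the differences were smaller, at 19.1 fold, 13.5 fold, 15.9 fold and 11.2 fold in the same order. Every one of the 12 differences had the same direction in 9 of 9 mice, and each had p = 0.00391 in an exact two-sided sign-flip permutation test over mice, adjusted p = 0.00391 over the 12 by Benjamini-Hochberg, which is the smallest value that 9 mice can give.

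**Figure D2:**
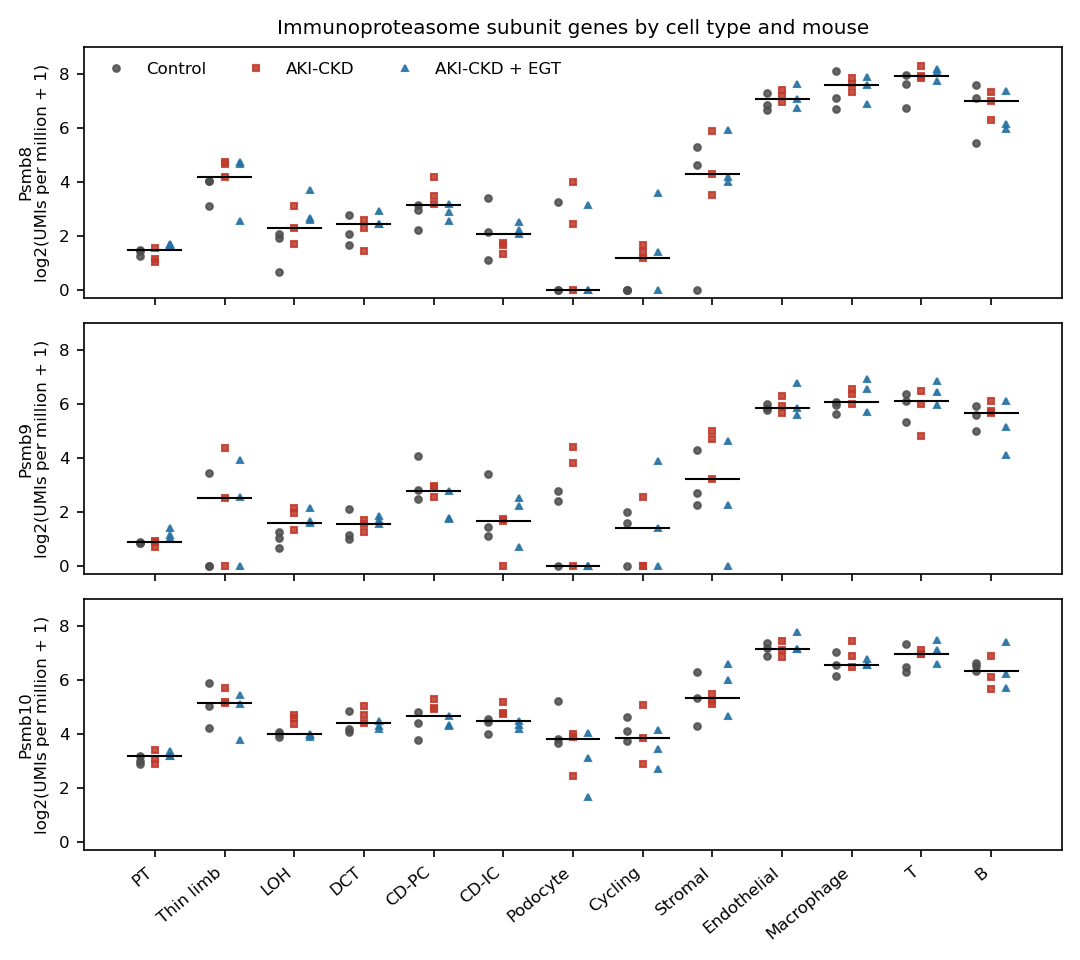
Levels of Psmb8, Psmb9 and Psmb10 (CPM, log axis) in each of 13 cell types, one point per mouse and colour by group. For all 3 genes the endothelial, macrophage, T and B cells lie above the PT cells in every mouse.

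Because free RNA in a droplet can add UMIs of another cell type, the PT values were set beside genes that PT cells should lack. The PT level as a percent of the macrophage level was 0.912% for Psmb8, 1.28% for Psmb9 and 7.52% for Psmb10, as medians over mice, and 0.0915% for Tyrobp and 0.109% for C1qa, which are genes of myeloid cells. Pecam1, a gene of the endothelium, was at a median of 0.862 CPM in PT cells and 287 CPM in endothelial cells. The median UMI count was 2816 in PT cells and 2498 in macrophages. The source of the few Psmb8 and Psmb9 UMIs in PT cells (1031 and 578 over all mice) was not tested.

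The share of the immunoproteasome subunits among all UMIs of the 6 catalytic genes Psmb5 to Psmb10 does not depend on library size. The median over mice was 1.26% in PT cells, 2.94% in LOH cells, 3.04% in DCT cells, 32.3% in endothelial cells, 35.6% in macrophages and 38.1% in T cells, and B cells lay between 17.2% and 34.8%. The highest PT mouse was at 1.42% and the lowest macrophage mouse at 23.7%. Although PT cells were most of the cells, only 18.0% of the 5736 Psmb8 UMIs came from them, against 29.5% from endothelial cells and 28.0% from macrophages, while 48.2% of the Psmb10 UMIs came from PT cells.

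The constitutive subunits also varied among the clusters of PT cells. The 11 PT clusters were compared with the other PT cells of the same mouse, and the clusters described here were chosen after their values were seen, so no test is given. Cluster 15, with 2697 cells (1.66% of PT cells) and led by Acsm3, Cndp2, Inmt, Acy3 and Ggct, had a median of 6559 CPM and ranged from 5348 to 7479 CPM over the mice. Its ratio to the other PT cells was 1.48, between 1.28 and 1.59, and was above 1 in 9 of 9 mice. Of the 31 genes, 26 were higher in cluster 15 in every mouse. The ratio was above 1 in all 9 mice in other PT clusters too, with smaller medians, namely 1.18 in cluster 3 (19900 cells, 23 of the 31 genes higher in every mouse) and 1.09 in cluster 2 (21883 cells, 19 genes).

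The subunits did not share in this equally. Psma1 and Psma4 of the alpha ring had ratios of 1.90 and 1.87 and Psmc4 of the base 1.83, while the catalytic subunits Psmb5, Psmb6 and Psmb7 had 1.30, 1.40 and 1.35, and Psmd3 of the lid had 0.97. Outside the constitutive genes, the chaperone gene Psmd10 had a ratio of 1.73 and Pomp, which encodes the chaperone that assembles the core, 1.46. Nfe2l1 was lower in this cluster in all 9 mice, at a ratio of 0.54. Ribosomal protein genes took a median of 7.87% of the UMIs of cluster 15, mitochondrial genes 2.41% and the nuclear RNA Malat1 0.154%, and a cell had a median of 3656 UMIs. Control mouse 3 gave 727 of its cells and AKI-CKD + EGT mouse 3 gave 80, the most and the fewest of any mouse.

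At the other end, cluster 6, with 13597 cells and led by Snhg11, Slc5a12, Nhs and Snx29, had a median of 3574 CPM and a ratio of 0.79, below 1 in 9 of 9 mice. In it 23 of the 31 genes were lower in every mouse, among them Psmb5 at 0.66 and Psmb4 at 0.67. The ratios of the 31 genes reached up to 1.19, and that of Psmd3 was 1.06. Malat1 took 3.00% of its UMIs, and a DCT cluster in which Malat1 took 2.52% was likewise low, at 3520 CPM. The collecting duct principal cells, with 1.37% Malat1, were also low, at 3847 CPM. Other clusters differed from this pattern, since PT cluster 7 had 1.31% Malat1 and a ratio of 0.97, PT cluster 10 had 0.255% and a ratio of 0.89, below 1 in 9 of 9 mice, and the podocytes had 0.899%. The RNA of Malat1 stays in the nucleus, and whether nuclear RNA content has a part in the low sums was not tested.

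**Figure D3:**
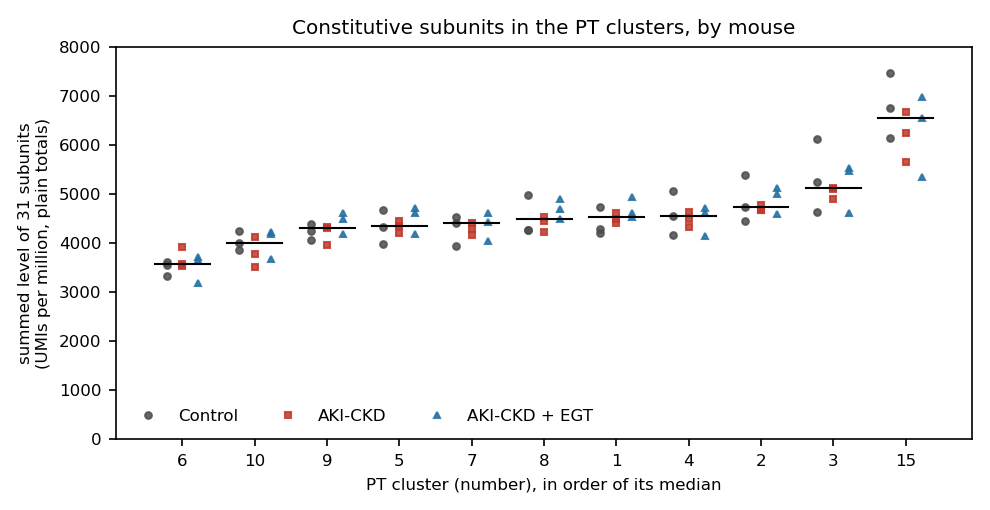
Summed level of the 31 constitutive subunit genes (CPM, linear axis) in each of the 11 PT clusters, ordered by median. Each mouse is a point, with colour by group, and a bar marks the median of the 9 mice. Cluster 15 has the highest median (6559) and cluster 6 the lowest (3574).

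For the comparison of groups, UMIs were summed per mouse, in all kept cells and in each of the 5 largest types, and scaled by the trimmed mean of M values (TMM), which sets each library against the bulk of its genes. In sums over all kept cells, a change in the mix of cells and a change within cells cannot be told apart. The sums of a type pool its clusters, so the same limit holds there for the mix of clusters. Overlap of groups, and the shares of genes without it, were taken on TMM-scaled levels. The injury comparison set the AKI-CKD mice against the Control mice, and the EGT comparison set the AKI-CKD + EGT mice against the AKI-CKD mice. Both share the AKI-CKD mice, so a high or low value there enters both with opposite sign.

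In PT cells, the summed constitutive subunits after TMM scaling were 3829, 4677 and 5002 CPM in the Control mice, 4510, 4572 and 4996 CPM in the AKI-CKD mice and 4709, 4413 and 3464 CPM in the AKI-CKD + EGT mice. The groups overlapped, and mice of one group differed from each other in most members at once. In AKI-CKD mouse 3, 31 of 31 genes lay above their mean over the 9 mice, and in Control mouse 1 and AKI-CKD + EGT mouse 3 the counts were 0 and 1. These last 2 libraries also had the highest mitochondrial shares, 6.08% and 6.39%, and the highest TMM factors, 1.06 and 1.20, and the part of these in their low values was not tested.

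**Figure D4:**
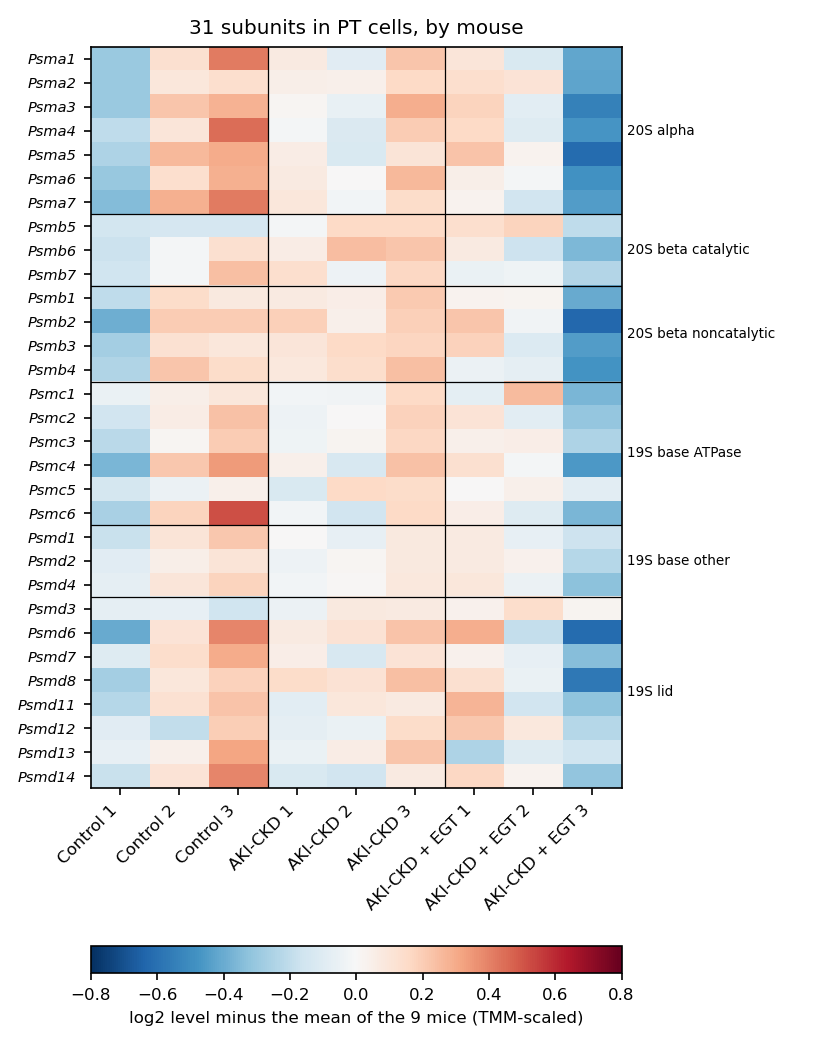
Difference of each of the 31 constitutive subunit genes from its mean over the 9 mice in PT cells (log2 of TMM-scaled CPM), one row per gene ordered by role and one column per mouse. Control mouse 1 and AKI-CKD + EGT mouse 3 are low for nearly all genes, and AKI-CKD mouse 3 is high for all 31.

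No constitutive subunit passed an adjusted p of 0.05 in PT cells in the injury comparison (edgeR's quasi-likelihood test, Benjamini-Hochberg over all 18006 genes tested), where 0.0444% of all genes passed. None passed with DESeq2 either, against 1.16% of all genes to which that tool gave an adjusted p. By edgeR 0 of the 31 had an unadjusted p under 0.05, against 10.9% of all genes. The median log2 fold change was 0.011 over the 31 genes, of which 16 were above 0, and -0.015 over all genes, of which 47.9% were above 0. Without TMM scaling the median of the 31 turned to -0.076 and that of all genes to -0.10. The 95% intervals of the 31 log2 fold changes all lay between -0.60 and 0.60.

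Log2 fold changes of the injury comparison are given by role, and no test was run between roles. The 3 catalytic genes had log2 fold changes of 0.24 (Psmb5), 0.19 (Psmb6) and 0.058 (Psmb7), and the 4 noncatalytic beta genes had a median of 0.11, with 4 of 4 above 0. The alpha ring had a median of -0.040 with 2 of 7 above 0, the ATPases 0.0039 with 3 of 6, the other base subunits -0.046 with 0 of 3, and the lid 0.0024 with 4 of 8, reaching from -0.19 to 0.16. Without TMM scaling Psmb7 turned to -0.025, and the medians were 0.11 for the catalytic genes, 0.030 for the noncatalytic beta genes and between -0.13 and -0.082 for the other 4 roles.

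Psmb5 was at 465, 470 and 469 CPM in Control PT cells, at 508, 575 and 575 CPM in AKI-CKD and at 566, 583 and 447 CPM in AKI-CKD + EGT. With TMM scaling the Control and AKI-CKD mice did not overlap, and the AKI-CKD + EGT mice covered the range of both. Without it Control mouse 1 lay above AKI-CKD mouse 1, so these groups overlapped. All AKI-CKD + EGT mice then lay above the Control mice. The log2 fold change in the injury comparison was 0.24 with a standard error of 0.14 and adjusted p = 0.529 (edgeR's quasi-likelihood test). With TMM scaling Psmd3, a scaffold subunit of the lid, was the other constitutive gene whose groups did not overlap in this direction. It was at 131 to 140 CPM in the Control mice against 142 to 155 CPM after cisplatin alone. On that scale 2 of 31 genes were thus higher without overlap, against 11.2% of all genes.

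In PT cells of the EGT comparison, again no constitutive subunit passed an adjusted p of 0.05 by edgeR or by DESeq2, where 0% of all genes passed by edgeR and 2.57% of those with an adjusted p by DESeq2. An unadjusted p under 0.05 was reached by 0 of the 31 genes by edgeR, against 14.9% of all genes, and by 2 by DESeq2, against 15.8% of all genes. The median log2 fold change was -0.14 over the 31 genes, with 3 above 0, and -0.0082 over all genes, of which 48.9% were above 0. The sign turned with the scaling. Without TMM the median of the 31 was 0.073 and 20 lay above 0, while the median of all genes moved to 0.21. With TMM, leaving out AKI-CKD + EGT mouse 3 gave a median of -0.021, and leaving out mouse 1 of that group gave -0.26, with an unadjusted p under 0.05 for 5 of the 31 genes, against 21.0% of all genes in that fit, and an adjusted one for 0, against 0.936%.

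Psmb6 and Psmb4 had the smallest p in this comparison. Psmb6 was at 203, 227 and 251 CPM in the Controls, 239, 272 and 268 CPM in AKI-CKD and 241, 204 and 178 CPM in AKI-CKD + EGT PT cells. Its log2 fold change was -0.32 with a standard error of 0.15 and adjusted p = 0.345 (edgeR's quasi-likelihood test), and a single AKI-CKD + EGT mouse reached the AKI-CKD range. Psmb4, a noncatalytic beta subunit, was at 195, 269 and 256 CPM in the Controls, 245, 254 and 272 CPM in AKI-CKD and 223, 220 and 165 CPM in AKI-CKD + EGT mice, with a log2 fold change of -0.34 and adjusted p = 0.359. With TMM scaling Psmb4, Psmb1 and the lid gene Psmd13 did not overlap between these groups and were lower in the AKI-CKD + EGT mice, 3 of 31 against 10.8% of all genes. Without it the groups overlapped for Psmb1 and did not for Psmb4.

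Among the members with the most UMIs of their role, Psma7 of the alpha ring had 237 ± 61.3 CPM in Control, 224 ± 13.3 CPM in AKI-CKD and 188 ± 30.8 CPM in AKI-CKD + EGT PT cells (mean ± SD, n = 3), and Psmb3 of the beta ring had 276 ± 40.1, 306 ± 8.04 and 259 ± 56.3 CPM in that order. Psmc3 of the base had 165 ± 23.8, 170 ± 12.5 and 159 ± 18.0 CPM, and Psmd4, the ubiquitin receptor of the base, 151 ± 13.4, 147 ± 5.58 and 136 ± 19.7 CPM. Psmb7, the trypsin-like catalytic subunit, was at 84.0, 92.8 and 110 CPM in the Controls, 103, 91.1 and 105 CPM in AKI-CKD and 90.2, 91.4 and 79.5 CPM in AKI-CKD + EGT mice. The mice of the 3 groups overlapped for Psmb7.

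Psma2 of the alpha ring had 219 ± 34.3, 235 ± 11.3 and 216 ± 44.0 CPM in Control, AKI-CKD and AKI-CKD + EGT PT cells (mean ± SD, n = 3), Psmc1 of the base had 149 ± 7.62, 150 ± 11.2 and 142 ± 30.4 CPM, and Psmd1, a scaffold of the base, 90.4 ± 12.3, 87.2 ± 4.34 and 83.9 ± 6.88 CPM. Psmb1 of the beta ring was at 219, 280 and 267 CPM in the Control mice, 266, 263 and 293 CPM after cisplatin and 258, 257 and 192 CPM after cisplatin with EGT. With this TMM scaling the last group lay below the one before. Without it these groups overlapped, and AKI-CKD + EGT mouse 2 had the highest Psmb1 level of the 9 mice, 270 CPM. Psmd7 of the lid had 118 ± 16.3, 109 ± 9.13 and 99.9 ± 13.2 CPM.

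All 6 roles had a median below 0 with TMM scaling, from -0.24 for the noncatalytic beta genes, -0.20 for the alpha ring and -0.20 for the catalytic genes to -0.11 for the ATPases, -0.10 for the lid and -0.056 for the other base subunits. Without it the medians were above 0 for 5 of the 6 roles, between 0.0027 for the alpha ring and 0.16 for the other base subunits, and -0.046 for the noncatalytic beta genes, while Psmb5 and Psmb7 turned from -0.056 and -0.20 to 0.15 and 0.018.

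**Figure D5:**
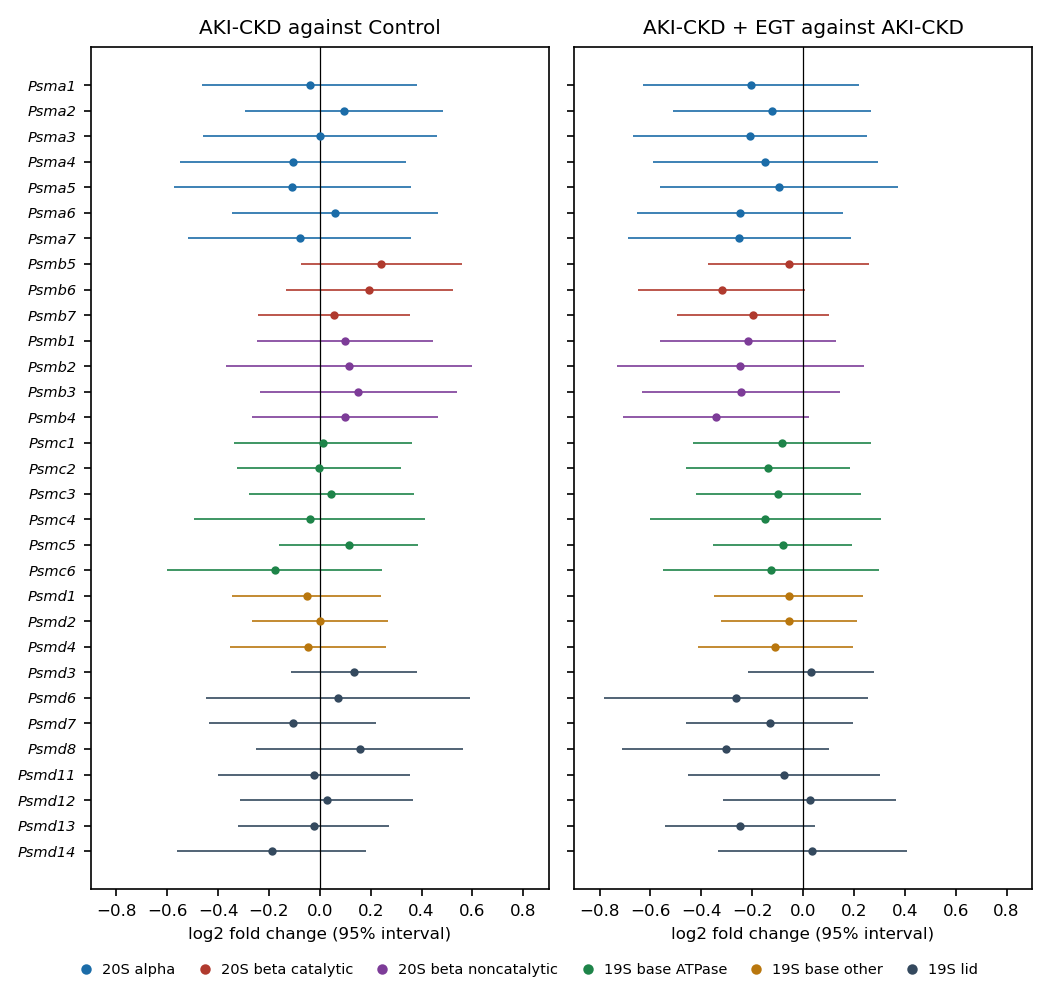
Log2 fold changes in PT cells of the 31 constitutive subunit genes, grouped by role, in the injury comparison (left) and the EGT comparison (right) (points, with 95% intervals from the edgeR fit as lines). The points run from -0.34 to 0.24, and the lines span from -0.78 to 0.60.

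Over all kept cells the values were near those of PT cells, with medians of the 31 genes of -0.0041 in the injury comparison and -0.16 in the EGT comparison, the second of which was 0.071 without TMM. Of the 31 genes 14 and 2 were above 0, against 50.2% and 48.8% of all genes. No constitutive gene passed in either by edgeR or DESeq2, where by edgeR 0.0199% and 0.00496% of all genes did and by DESeq2 0.842% and 1.43% of those with an adjusted p. Of the 31, 0 had an unadjusted p under 0.05 by edgeR, against 8.02% and 12.7% of all genes.

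In DCT cells no constitutive subunit passed by either tool in either comparison. By edgeR 0% of all genes passed, and by DESeq2 0.0571% and 0.831% of those with an adjusted p, which in the injury comparison were 24 of the 31 constitutive genes. Of the 31 genes 2 had an unadjusted p under 0.05 in the injury comparison, against 9.61% of all genes, 0 had one in the EGT comparison, against 14.8%, and the 2 lay on opposite sides of 0. Psma4, of the alpha ring, was at 192, 200 and 239 CPM in the Control mice and 161, 160 and 176 CPM in AKI-CKD mice, a log2 fold change of -0.34 with adjusted p = 0.495 (edgeR's quasi-likelihood test). Psmd3 was at 175, 182 and 194 CPM in the Control mice and 220, 251 and 211 CPM in AKI-CKD mice, a log2 fold change of 0.31 with adjusted p = 0.495. The medians of the 31 genes were -0.0072 and -0.022, with 14 and 12 genes above 0, against 47.8% and 50.9% of all genes. The second was 0.088 without TMM, and with cells clustered without the Harmony correction the medians were -0.14 and 0.13. The class named DCT was then partly other cells, since it held 11751 cells that were DCT with the correction and 10107 that were PT. In the EGT comparison 4 of the 31 were lower without overlap, against 8.99% of all genes, and Psmb4 and Psma6 had the smallest p there, at -0.23 with adjusted p = 0.427 and -0.21 with adjusted p = 0.51 (edgeR's quasi-likelihood test).

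In LOH cells 0 of the 31 genes passed by either tool, where 0% and 0.121% of all genes passed by edgeR and 0.325% and 0.817% of those with an adjusted p by DESeq2. Psmc4, an ATPase of the base, was the only one of the 31 with an unadjusted p under 0.05 in the injury comparison, against 10.2% of all genes, and 0 had one in the EGT comparison, against 12.8%. Psmc4 was at 89.8, 86.6 and 99.9 CPM in the Control mice and 63.3, 69.8 and 76.8 CPM in AKI-CKD mice, without overlap, as were 4 of 31 genes, against 7.8% of all genes. Its log2 fold change was -0.39 with adjusted p = 0.438 (edgeR's quasi-likelihood test), and Psmc2, another of the ATPases, had -0.41 with adjusted p = 0.495. Psmd14, the deubiquitinase of the lid, was at 34.5, 40.5 and 32.2 CPM in AKI-CKD and 44.7, 45.1 and 51.8 CPM in AKI-CKD + EGT mice, with a log2 fold change of 0.41 and adjusted p = 0.402. The medians over the 31 genes were -0.10 and 0.047, with 11 and 19 above 0, against 49.3% and 52% of all genes, and 2 of the 31 were lower without overlap in the EGT comparison, against 7.63%.

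Endothelial cells had medians of 0.013 and -0.047, with 18 and 9 genes above 0, against 48.6% and 52.2% of all genes, and without TMM these turned to -0.019 and 0.047. There was no constitutive gene that passed by edgeR, where 0% and 0.0097% of all genes passed. DESeq2 gave an adjusted p to 3 of the 31 in the injury comparison and to 23 in the EGT comparison, and none of these passed, where 4.26% and 2.98% of all genes with an adjusted p did. None had an unadjusted p under 0.05 by edgeR, against 9.34% and 10% of all genes. Psmb6 was at 233, 286 and 241 CPM in AKI-CKD and 210, 185 and 216 CPM in AKI-CKD + EGT endothelial cells, without overlap, as were 5 of 31 genes that were lower, against 7.64% of all genes, with a log2 fold change of -0.31 and adjusted p = 0.517 (edgeR's quasi-likelihood test). Psmd8 had -0.35 with adjusted p = 0.525 there, and in the injury comparison Psmc2 had -0.30 with adjusted p = 0.597 and Psmb2 0.34 with adjusted p = 0.612.

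Macrophages had the widest fold changes, with UMI sums that were smaller and standard errors that were larger (a median of 0.20 over the 31 genes, and 0.17 in PT cells). The median log2 fold change was 0.087 in the injury comparison, with 22 of 31 genes above 0 against 49.2% of all genes, and -0.17 in the EGT comparison, with 7 above 0 against 51.5%. Without TMM scaling the first turned to -0.0023 and the second was -0.068, while the medians of all genes were -0.097 and 0.11. With TMM scaling the 7 alpha genes were above 0 in the first comparison and below 0 in the second.

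No constitutive gene passed in macrophages by either tool, where 0.0563% and 0.0113% of all genes passed by edgeR and 0.699% and 0.134% of those with an adjusted p by DESeq2. An unadjusted p under 0.05 was reached by Psmd8 in the first comparison, against 8.53% of all genes, and by Psmd8, Psmb4 and Psmd13 in the second, against 8.85%. Psmd8, of the lid, was at 66.9, 98.1 and 102.4 CPM in the Controls, 168, 136 and 113 CPM in AKI-CKD and 93.2, 86.9 and 91.0 CPM in AKI-CKD + EGT macrophages. The AKI-CKD mice were above all other mice, at log2 fold changes of 0.63 with adjusted p = 0.454 and -0.60 with adjusted p = 0.461 (edgeR's quasi-likelihood test).

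Psmb4 was at 178, 232 and 210 CPM in the Controls, 255, 267 and 262 CPM in AKI-CKD and 229, 190 and 170 CPM in AKI-CKD + EGT macrophages, so the AKI-CKD mice were again above the others. Its log2 fold changes were 0.34 with adjusted p = 0.635 and -0.42 with adjusted p = 0.544 (edgeR's quasi-likelihood test). Constitutive genes whose groups did not overlap and were higher in AKI-CKD than Control macrophages numbered 4 of 31 (Psmb1, Psmb4, Psmd8 and Psmd13), against 7.36% of all genes, and those lower in AKI-CKD + EGT than AKI-CKD numbered 7 of 31, against 6.58%.

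Psmb4 was below 0 in the EGT comparison in all 5 cell types with TMM scaling, and its groups did not overlap in any of the 5. Among all genes, 10.8% in PT cells, 8.99% in DCT cells, 7.63% in LOH cells, 7.64% in endothelial cells and 6.58% in macrophages were lower without overlap. Without TMM scaling the log2 fold change was -0.13 in PT cells, -0.12 in DCT cells, -0.19 in LOH cells, -0.080 in endothelial cells and -0.32 in macrophages. This was noticed after the values were seen, the types come from the same mice, and no type passed the adjusted test.

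Among the immunoproteasome genes, Psmb10 in LOH cells had the smallest adjusted p of the 40 genes in any type. It was at 15.4, 16.4 and 13.3 CPM in the Controls, 19.2, 25.8 and 23.8 CPM in AKI-CKD and 13.6, 14.3 and 14.4 CPM in AKI-CKD + EGT mice, from 14 to 46 UMIs a mouse. The AKI-CKD mice lay above all others, at log2 fold changes of 0.61 with adjusted p = 0.412 and -0.70 with adjusted p = 0.246 (edgeR's quasi-likelihood test). Groups that did not overlap in the first direction made up 8.49% of all genes. In DCT cells Psmb10 was at 17.7, 16.3 and 27.0 CPM in the Controls, 26.0, 33.3 and 20.8 CPM in AKI-CKD and 20.5, 17.9 and 16.6 CPM in AKI-CKD + EGT mice, with adjusted p = 0.567 and 0.276.

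In macrophages Psmb8 was at 100, 140 and 269 CPM in the Controls, 209, 244 and 165 CPM in AKI-CKD and 238, 184 and 111 CPM in AKI-CKD + EGT mice, and the groups overlapped. Psmb9 was at 46.9, 61.3 and 65.3 CPM in the Controls, 66.7, 98.3 and 84.5 CPM in AKI-CKD and 121, 90.2 and 48.8 CPM in AKI-CKD + EGT mice. Psmb10 was at 68.0, 93.4 and 127 CPM, 125, 182 and 90.6 CPM, and 94.7, 106 and 88.5 CPM in the same order of groups. The 3 genes had log2 fold changes of 0.30, 0.57 and 0.50 in the injury comparison. With TMM scaling Psmb9 alone did not overlap between these groups, where 7.36% of all genes were higher without overlap. Without it Control mouse 3 was at 67.0 CPM for Psmb9 and AKI-CKD mouse 1 at 63.2 CPM, so these groups overlapped. With one mouse left out, Psmb8 ran from 0.019 (without Control mouse 1) to 0.77 (without Control mouse 3) and Psmb10 from 0.15 (without AKI-CKD mouse 2) to 0.73 (without AKI-CKD mouse 3). In the EGT comparison they had -0.22, 0.0031 and -0.46, and the last was -0.12 without AKI-CKD mouse 2 and -0.70 without AKI-CKD mouse 3.

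In endothelial cells the log2 fold changes of Psmb8, Psmb9 and Psmb10 were 0.27, 0.13 and 0.024 in the injury comparison and -0.12, 0.058 and 0.13 in the EGT comparison, and the last of the first 3 turned to -0.0074 without TMM scaling. In PT cells Psmb8 was at 1.31, 1.80 and 1.81 CPM in the Controls, 1.24, 2.05 and 1.15 CPM in AKI-CKD and 2.13, 2.10 and 1.78 CPM in AKI-CKD + EGT mice. Its log2 fold changes were -0.16 with adjusted p = 0.831 and 0.45 with adjusted p = 0.437 (edgeR's quasi-likelihood test), and the groups overlapped. Leaving out AKI-CKD mouse 2 moved them to -0.45 and 0.74, and leaving out AKI-CKD mouse 3 to -0.0019 and 0.29. Psmb10 was at 7.63, 7.42 and 6.66 CPM in the Controls, 7.81, 10.1 and 7.30 CPM in AKI-CKD and 8.07, 8.99 and 6.71 CPM in AKI-CKD + EGT PT cells. Its log2 fold changes were 0.22 with adjusted p = 0.609 and -0.085 with adjusted p = 0.837 (edgeR's quasi-likelihood test), and the second was 0.12 without TMM scaling. The low levels of Psmb9 in PT cells were 0.761, 0.830 and 0.885 CPM in the Controls, 0.862, 0.953 and 0.713 CPM in AKI-CKD and 1.03, 1.55 and 1.00 CPM in AKI-CKD + EGT mice, with a log2 fold change of 0.51 and adjusted p = 0.383 in the EGT comparison (edgeR's quasi-likelihood test). Without TMM scaling Psmb9 was at 0.831, 0.900 and 0.635 CPM in AKI-CKD and 1.04, 1.63 and 1.21 CPM in AKI-CKD + EGT mice. On that scale Tyrobp in the same cells was at 1.41, 4.43 and 1.55 CPM in AKI-CKD and 2.91, 4.44 and 2.94 CPM in AKI-CKD + EGT mice. The part of free RNA, for which Tyrobp stands here, in the Psmb9 values was not tested.

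Whether a group effect on the 39 genes that could be tested differed between PT cells and DCT, LOH, endothelial cells or macrophages was tested by an interaction term, in 312 tests. Each test came from a fit of PT cells and one other type together, with the mouse as a block. None passed an adjusted p of 0.05 (edgeR's quasi-likelihood test), against 0.393% of the tests of all genes, and 10 had an unadjusted p under 0.05, against 6.91%. The smallest adjusted p was 0.125, for Psmb8 in macrophages against PT cells in the EGT comparison, where the log2 fold changes differed by -0.77 in that joint fit, which was scaled apart from the fits of single types.

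In PT cells the chaperone genes Psmd5, Psmd9 and Psmd10 had medians of 20.9, 75.3 and 33.3 CPM without TMM scaling. None of them passed an adjusted p of 0.05 (edgeR's quasi-likelihood test). With TMM scaling Psmd9 had 70.5 ± 7.03 CPM in Control, 83.5 ± 3.95 CPM in AKI-CKD and 70.8 ± 7.62 CPM in AKI-CKD + EGT mice (mean ± SD, n = 3), with log2 fold changes of 0.24 and -0.24. Its AKI-CKD mice, at 79.7 to 87.6 CPM, lay above the Control mice, at 65.5 to 78.6 CPM, and above the AKI-CKD + EGT mice, at 63.3 to 78.5 CPM, where 11.2% of all genes were higher without overlap in the injury comparison and 10.8% lower in the EGT comparison. Without TMM scaling the AKI-CKD mice were at 80.2, 75.3 and 78.0 CPM for Psmd9. The AKI-CKD + EGT mice were then at 71.3, 82.3 and 76.2 CPM, so these groups overlapped. Psmc3ip had a median of 5.98 CPM without TMM scaling, and log2 fold changes of 0.24 and -0.19 with it. Psma8 had 115 UMIs and Psmb11 had 40 UMIs in all PT cells, and Psmb11 was too low to test in any type.

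Genes that work with the proteasome were followed in PT cells as well. Pomp had log2 fold changes of 0.18 and -0.27 and Nfe2l1 -0.18 and 0.19 in the 2 comparisons, and the activator genes Psme1 and Psme2 had 0.20 and 0.18, then -0.11 and -0.41. The second value of Nfe2l1 was 0.030 without AKI-CKD + EGT mouse 3 and 0.30 without mouse 1 of that group. Tap1, of the peptide transporter that feeds MHC class I molecules, had 0.18 and -0.20. Of 19 proteasome partners tested 0 passed in either comparison. Their log2 fold changes ran from -0.25 to 0.55 in the injury comparison, with 12 above 0, and from -0.86 to 0.19 in the EGT comparison, with 3 above 0, against 47.9% and 48.9% of all genes. An unadjusted p under 0.05 was reached by 0 and 1 of them, against 10.9% and 14.9% of all genes. Of 15 ubiquitin genes 0 passed, with 10 and 1 above 0, ranges of -0.19 to 0.61 and -0.52 to 0.029, and an unadjusted p under 0.05 for 2 in each, against 10.9% and 14.9% of all genes. Of 12 MHC class I genes 0 passed, with 9 and 5 above 0, ranges of -1.54 to 0.38 and -0.46 to 1.41, and an unadjusted p under 0.05 for 1 and 3, against those same shares. Of all genes, 0.0444% and 0% passed the adjusted test by edgeR in the 2 comparisons. B2m, the light chain of the class I molecule, had 0.38 and -0.24. These fold changes and counts are with TMM scaling. In the EGT comparison the partners and the ubiquitin genes then each had a median of -0.18. Without that scaling the median of all genes moved to 0.21 in that comparison. The counts of these lists are not given on that scale.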

How the data were processed

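Single-cell libraries of 9 mouse kidneys were read as deposited UMI counts per gene and cell, which the authors wrote with PISA 1.0 per the file headers, on build GRCm39 per the labels, with no normalization; the aligner is not given in the sources used here. The genes, roles and gene lists were chosen with earlier results of these data known. Cells with at least 1000 UMIs, 500 genes and at most 15% mitochondrial UMIs were kept, following the limits stated in the study's methods, which leave 196925 cells here and fewer cells in the study. Cell names are serial numbers in each library, so sharing of barcodes between libraries could not be judged from them, and no doublet caller was run.

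Counts of 2000 variable genes were reduced to 30 components, corrected for library by an implementation of Harmony written for this work and clustered with leidenalg 0.10.2 at a resolution of 1.1, giving 29 clusters. A cluster was named where at least 3 markers of one type were at least 2 fold above their level in clusters of other types, which replaces a rule against all other cells that could not work where PT cells are most cells. Clusters that met no name held 510 cells.

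UMIs were summed per mouse and type and tested with edgeR 4.0.16 (TMM, low counts filtered, quasi-likelihood test, all 9 mice in one fit, group as the only term) with Benjamini-Hochberg adjustment over all genes tested at 0.05. The test was checked on simulated data. Of the 40 genes, 39 passed the filter in PT cells and all kept cells, 38 in endothelial cells, 37 in DCT cells and in macrophages and 35 in LOH cells, and all 31 constitutive genes passed in each. The interaction model had the mouse as a block. Intervals of fold changes are 95% t intervals from the fit. The genes named were the catalytic and immunoproteasome genes, the 2 highest genes of each role, in each type and comparison the 2 constitutive genes with the smallest p, the symbols that are no common subunit, and Nfe2l1, Pomp, Psme1, Psme2, Tap1 and B2m. Genes named for groups that did not overlap, and the PT clusters and their genes, were chosen after their values were seen.

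Promoters of 33 of the 40 genes were found in the RefSeq table of GRCm38.p6.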

Additional observations from a re-analysis of the deposited data

How the results depend on the processing

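Over the alternatives run, which were DESeq2 1.42.0, no TMM, no low count filter, only the 6 mice compared, other library sizes, no mitochondrial limit, no Harmony, removal of the 5% of cells with the most UMIs, the replicate block and each mouse left out, the count of constitutive genes past the adjusted threshold stayed at 0 in every type, although DESeq2 gave no adjusted p to 28 of the 31 in endothelial cells and 7 in DCT cells in the injury comparison and to 8 in endothelial cells in the EGT comparison. In the main edgeR fits 0% to 0.121% of all genes passed. By DESeq2 0.0571% to 4.26% of the genes with an adjusted p did. A count of 0 of 31 is near these shares and shows nothing particular to these genes. Of 504 values for the main results, 9 medians moved by more than the spread between mice, and the other 495 stayed within that spread, kept their test's call or kept their count. The 9 belong to 7 of the 36 main results, all of them medians. Since the 504 also hold the counts of genes passed and the 12 tests between cell types, 9 of 504 is not a rate for the medians. Medians near 0 changed sign within that spread, such as the PT median of the injury comparison, which was 0.011 and turned to -0.076 without TMM. Without TMM the median log2 fold change of the 31 genes in the EGT comparison was 0.071 in all kept cells, 0.073 in PT cells, 0.088 in DCT cells, 0.047 in endothelial cells and -0.068 in macrophages, and in the injury comparison it was -0.0023 in macrophages. Without Harmony it was -0.14 and 0.13 in DCT cells, where the class held 10107 cells that were PT with it. Leaving out one mouse gave 0.042 to 0.16 in macrophages (injury comparison, the last without Control mouse 3) and, in the EGT comparison, -0.26 to -0.021 in PT cells and -0.29 to -0.043 in all kept cells. In the injury comparison it gave -0.093 (without Control mouse 1) to 0.11 (without Control mouse 3) in PT cells and -0.097 to 0.093 in all kept cells, and in endothelial cells -0.033 to 0.074.

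Single genes reversed in 39 of 915 values, and none of them had passed a test. Without TMM in PT cells, Psmb7 and Psmb9 were at -0.025 and -0.053 in the injury comparison, and Psmb10, Psmb5, Psmb7, Psme1 and Tap1 at 0.12, 0.15, 0.018, 0.094 and 0.021 in the EGT comparison. Endothelial Psmb10 in the injury comparison was -0.0074 without TMM, -0.012 without the mitochondrial limit and -0.053 without the cells with the most UMIs. In the EGT comparison, PT Psmb10 was 0.016 without the cells with the most UMIs, DCT Psma6 was 0.022 without Harmony, and endothelial Psmb9 was -0.0018 without the mitochondrial limit. Macrophage Psmb9 in that comparison was -0.0092 with no filter, -0.014 with the replicate block, -0.0039 with other library sizes, -0.12 without Harmony and -0.026 without the mitochondrial limit.

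With one mouse left out, 36 of 61 log2 fold changes of single genes moved by over 1.5 times. These ranges crossed 0 in the EGT comparison: B2m -0.60 to 0.0096, Psmb10 -0.19 to 0.059, Psmb5 -0.13 to 0.064 and Psme1 -0.19 to 0.0059 in PT cells, Psmb10 -0.073 to 0.29, Psmb8 -0.37 to 0.047 and Psmb9 -0.35 to 0.29 in endothelial cells, and Psmb8 -0.48 to 0.026 and Psmb9 -0.29 to 0.29 in macrophages. In the injury comparison they were Psmb7 -0.028 to 0.18 and Psmb9 -0.062 to 0.14 in PT cells, and Psmb10 -0.13 to 0.15 and Psmb9 -0.053 to 0.27 in endothelial cells.

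Correlations of same-numbered deviations ran from -0.45 to 0.37. In the injury and EGT comparisons, 2 of 6 and 0 of 6 mice correlated best with their own number in PT cells. Over all kept cells these counts were 3 of 6 and 0 of 6. With 3 mice in a group, such counts cannot settle whether the replicate numbers pair the mice. With the replicate block the PT medians were 0.014 and -0.13 and no constitutive gene was called. The median standard error of a constitutive gene was 0.17 in PT cells and 0.20 in macrophages.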
